A study of Mus musculus with 25 samples.

Results

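Messenger RNA of 7 genes of extracellular nucleotide and adenosine signalling was followed in mouse macrophages: the adenosine receptor genes Adora2a and Adora2b, the nucleotide receptor genes P2rx4, P2ry6 and P2ry12, the ATP- and ADP-degrading enzyme gene Entpd1, and Ada, which encodes adenosine deaminase. They were chosen by symbol, and each has 1 of the 24411 rows of the count files. RNA-seq after depletion of ribosomal RNA was performed on 25 samples in 9 groups. Bone marrow-derived macrophages (BMDMs) of C57BL/6 mice were grown for 4 days in 25 ng/ml M-CSF and gave 7 groups of 3 samples. These were control BMDMs cultured for 4 h, BMDMs given 100 U/ml IFN-γ with 100 ng/ml LPS (IFN-γ-LPS, classical or M1 activation) for 1, 4, 12 or 24 h by the labels, and BMDMs given 10 ng/ml of IL-4 or of IL-13 (alternative or M2 activation) for 12 h. The study describes the IFN-γ-LPS groups as primed with IFN-γ before LPS, so the hours may be those of LPS, and the length of priming is not given in the sources used here. RAW264.7, a mouse macrophage-like cell line, gave 2 groups of 2 samples, a 4 h control and cells given 100 ng/ml LPS without IFN-γ for 4 h. The same 3 control libraries serve every BMDM comparison, and by the labelled hours only the 4 h treatment had their culture time.

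Cells release ATP and other nucleotides when they are activated, stressed or damaged. P2X receptors are ion channels opened by ATP, and P2Y receptors couple nucleotides to G proteins. Surface enzymes cut ATP and ADP to AMP and AMP to adenosine, which acts on adenosine receptors that in macrophages restrain inflammatory cytokine output through cyclic AMP, until transporters or adenosine deaminase remove it.

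Levels are sense-strand counts scaled to library size (CPM, the usual per-library unit), without the ribosomal precursor row Rn45s and scaled by TMM, a factor per library that balances the bulk of the genes. Log2 fold changes came from edgeR's quasi-likelihood test, which gives no standard error. The standard error (SE) printed here is the absolute change over the square root of the test's F. It is an approximation that can be too small where a group holds few counts. A gene was called at a false discovery rate (FDR, the Benjamini-Hochberg adjusted p over all genes tested) of at most 0.01. In bulk RNA, fewer cells that use a gene and less of its RNA per cell cannot be told apart. Without Rn45s, which took 20.1% to 39.8% of the counts, libraries held 1502618 to 2532496 counts. A count of 0 allows up to 3 counts, or 1.04 to 2.66 CPM, and this covers counting error only. TMM factors ran from 0.717 to 0.751 at 4 h of IFN-γ-LPS against 1.09 to 1.11 in control BMDMs, so that without TMM the median of all genes lay at -0.605 (log2) for 4 h against control, -0.217 for 1 h, -0.341 for 12 h, -0.205 for 24 h and -0.18 for RAW264.7. All 8 macrophage marker genes were counted in every BMDM library, with summed levels of 18930 to 32910 CPM. RAW264.7 had 8528 to 10270 CPM and no Mertk counts. Both T cell markers were at 0 throughout, and the 3 B cell markers summed to at most 0.5775 CPM. The mast cell list reached at most 0.5752 CPM and the dendritic cell list 4.163 CPM, in RAW264.7 control cells. In BMDMs the megakaryocyte and platelet list summed to at most 6.327 CPM. The microglia list, there all Tmem119, summed to 1.047 to 6.156 CPM. The neutrophil list, nearly all S100a8, summed to 5.425 to 12.29 CPM in control BMDMs, 16.79 to 27.66 CPM with IFN-γ-LPS and 5.558 to 9.54 CPM with IL-4 or IL-13. The 3 stromal genes summed to 26.04 to 35.4 CPM in control BMDMs and 38.85 to 79.7 CPM at 4 h. Within that list the higher level was that of Pdgfrb (mean 4.12 CPM in control, 34.2 at 4 h), beside Col1a1 (24.2 and 24.9) and Col3a1 (3.58 and 3.08). The part of these markers in the results was not tested. Antisense counts of Rn45s took 0.0386% to 0.122% of its counts in control, 1 h, 4 h and 12 h libraries but 0.00603% to 0.0214% at 24 h and with IL-4 or IL-13. A library difference and the treatment cannot be told apart for the latter.

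Promoters are given for the 2 members with the widest swings for which a sequence was at hand, Adora2b and Entpd1, to show the sequence just before their annotated starts. RefSeq sequences (GRCm38.p6, the mm10 assembly) matched 5 of the 7 members, with 6 starts. Each line is the 250 bases upstream of a start, 5′ to 3′ on the gene's strand, with CG dinucleotides in capitals.
Adora2b, chr11:62248734-62248983, plus strand: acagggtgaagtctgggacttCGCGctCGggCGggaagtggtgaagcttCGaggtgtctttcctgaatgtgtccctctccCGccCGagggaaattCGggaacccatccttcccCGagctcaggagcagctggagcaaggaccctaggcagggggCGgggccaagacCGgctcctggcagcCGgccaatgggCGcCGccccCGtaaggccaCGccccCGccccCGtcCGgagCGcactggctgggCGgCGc
Entpd1, first start, chr19:40612116-40612365, plus strand: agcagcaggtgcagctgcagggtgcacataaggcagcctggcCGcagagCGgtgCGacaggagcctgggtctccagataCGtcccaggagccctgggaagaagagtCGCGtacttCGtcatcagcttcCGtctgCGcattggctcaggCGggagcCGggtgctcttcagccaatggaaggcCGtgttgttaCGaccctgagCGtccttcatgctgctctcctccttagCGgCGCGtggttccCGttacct
Entpd1, second start, chr19:40659520-40659769, plus strand: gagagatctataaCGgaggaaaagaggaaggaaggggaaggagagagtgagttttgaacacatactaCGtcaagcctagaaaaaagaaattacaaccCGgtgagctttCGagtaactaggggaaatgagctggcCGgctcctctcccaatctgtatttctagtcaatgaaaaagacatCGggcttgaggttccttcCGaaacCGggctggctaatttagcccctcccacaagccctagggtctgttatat
The Adora2b stretch holds 22 CG dinucleotides, the first Entpd1 stretch 18 and the second 8, against a median of 6 over 32851 promoters. With the 50 bases after the start, GC content was 70.0%, 64.0% and 48.7%, and the median over all promoters was 52.7%. In these 300 bases, both strands were searched for the NF-kB consensus (by name), the STAT6-type letters TTCNNNNGAA, the GAS letters TTCNNNGAA, the ISRE core GAAANNGAAA and the cyclic AMP response element TGACGTCA, which 8.46%, 6.95%, 8.3%, 3.44% and 1.79% of all promoters held. None of these letters occurred in the Adora2b window or in either Entpd1 window, nor in that of P2rx4. The Ada window held the NF-kB letters 137 bases and the GAS letters 90 bases before the start, and the P2ry12 window held the NF-kB letters 51 bases before it.

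Adora2a encodes a Gs-coupled adenosine receptor and lies on the plus strand of chromosome 10 (75316877 to 75334784, mm10). Nearly absent from control BMDMs, it rose at each time of IFN-γ-LPS. The 3 control BMDM libraries held 0, 0 and 1 counts of Adora2a, that is 0, 0 and 0.534 CPM. At 1 h of IFN-γ-LPS, Adora2a stood at 2.24, 5.15 and 7.59 CPM, from 4, 8 and 15 counts. The 3 libraries of the 4 h group held 227, 211 and 205 CPM, those of the 12 h group 142, 125 and 111 CPM and those of the 24 h group 135, 132 and 123 CPM. No stimulated library overlapped a control library. Adora2a rose at each time, with log2 fold changes of 4.33 (SE 0.78, FDR 1.14e-05), 9.68 (SE 0.32, FDR 4.55e-30), 8.93 (SE 0.35, FDR 4.65e-27) and 9.01 (SE 0.34, FDR 1.51e-27) at 1, 4, 12 and 24 h. Because the control rests on 1 count, these sizes are more uncertain than the SE shows. As a ratio of counts with a 95% interval for counting error, Adora2a was 28.3 (4.67 to 1160) times the control at 1 h. The ratio was 1192 (213 to 47158) for the 4 h, 705 (126 to 27894) for the 12 h and 723 (129 to 28571) for the 24 h group. Without control replicate 3, which holds that count, the fitted log2 values were 6.14, 11.49, 10.75 and 10.82.

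The order of Adora2a levels over the 9 groups was 4 h (mean 214 CPM), 24 h (129.9 CPM), 12 h (126 CPM) and 1 h (4.99 CPM) of IFN-γ-LPS, followed by 5 groups under 1 CPM. The 24 h and 12 h libraries overlapped, and so did all neighbours below the 1 h group. With IL-4, Adora2a was at 0.524, 0.556 and 0 CPM, and with IL-13 at 0, 2.05 and 0 CPM, from 2 and 4 counts in all. It was not tested against control there, since it did not pass the filter on low counts in the fit of control, IL-4 and IL-13. RAW264.7 had no Adora2a count in either control library and 1 count in each LPS library (0.398 and 0.347 CPM), which is under the limit of a count of 0.

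Adora2b encodes the adenosine receptor of lower affinity, also Gs-coupled, and lies on the plus strand of chromosome 11 (62248984 to 62266453). It rose at each time of IFN-γ-LPS with its highest level at 12 h, and it rose in RAW264.7 as well. Control BMDMs held 1.07, 1.09 and 1.60 CPM of Adora2b, from 2, 2 and 3 counts. With IFN-γ-LPS, Adora2b stood at 15.7, 18.7 and 16.7 CPM at 1 h and at 26.6, 17.1 and 19.7 CPM at 4 h. It reached 95.3, 94.3 and 117 CPM at 12 h, and stood at 47.4, 50.2 and 62.3 CPM at 24 h. Each stimulated library lay above every control library, and the 1 h and 4 h libraries overlapped. The log2 fold changes were 3.65 (SE 0.39, FDR 6.17e-11), 3.93 (SE 0.39, FDR 3.41e-12), 6.22 (SE 0.27, FDR 2.49e-25) and 5.33 (SE 0.30, FDR 5.84e-21) at 1, 4, 12 and 24 h.

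With IL-4, Adora2b stood at 4.71, 3.33 and 4.17 CPM and with IL-13 at 6.33, 2.56 and 5.06 CPM, all above the control libraries. Adora2b did not pass the filter in that fit, so it was not tested against control. Without the filter it had 1.65 (log2, FDR 0.0748) with IL-4 and 1.82 (FDR 0.0254) with IL-13, not called. In RAW264.7, Adora2b went from 3.47 and 5.80 CPM in control cells to 86.8 and 81.4 CPM with LPS. That is a log2 fold change of 4.21 (SE 0.21, FDR 1.53e-84), an 18.6-fold rise. The RAW264.7 LPS libraries stood second in the order of Adora2b levels, below 12 h of IFN-γ-LPS in BMDMs (mean 102 CPM) and above 24 h (mean 53.3 CPM), without overlap.

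**Figure D1:**
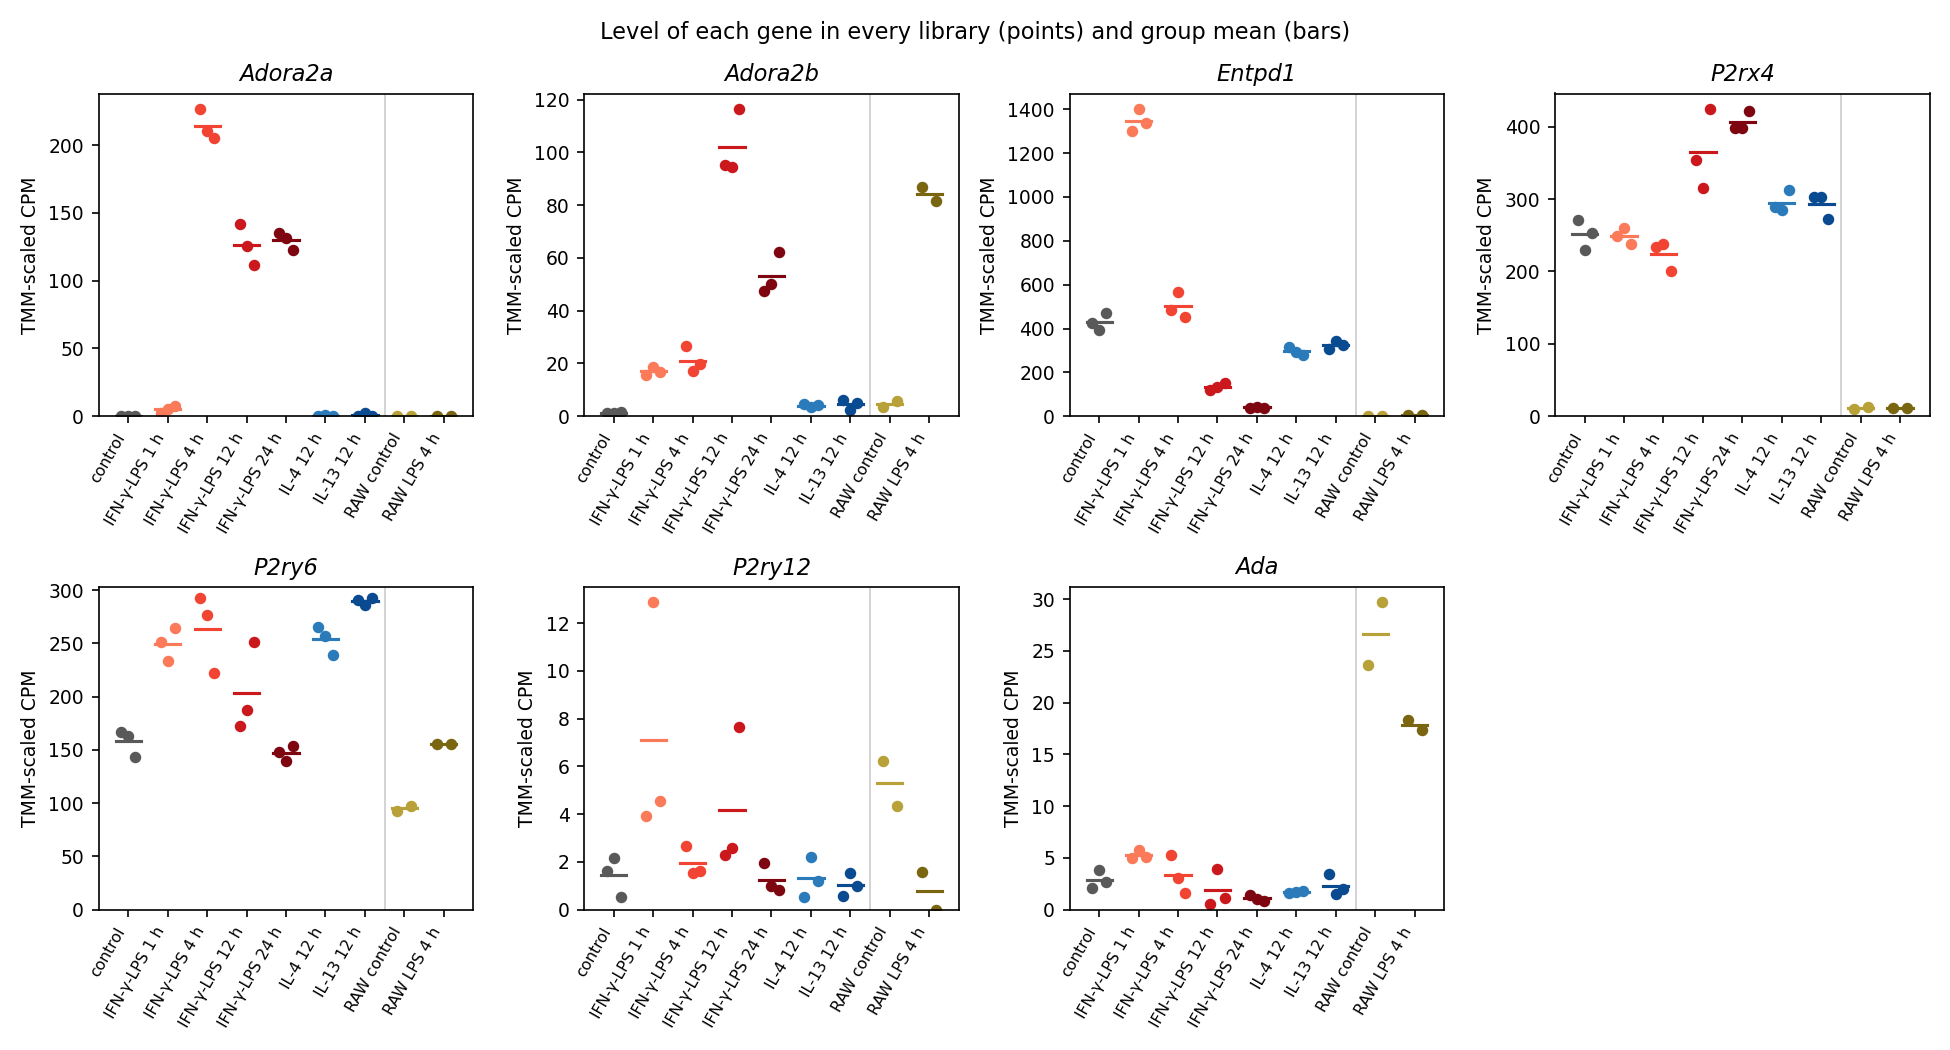
Level of each of the 7 genes in TMM-scaled CPM (vertical axes, linear, 1 scale per gene) in the 9 groups. Points are libraries and bars are group means, with 3 libraries in a BMDM group and 2 in a RAW264.7 group. Adora2a and Adora2b stand near 0 in control BMDMs and reach group means of 214 and 102 CPM, Entpd1 runs from 1347 CPM at 1 h to 40.5 CPM at 24 h, and Ada is highest in RAW264.7.

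Entpd1 encodes the main ectonucleotidase of leukocytes, which takes ATP and ADP down to AMP, and lies on the plus strand of chromosome 19 (40612366 to 40741602). It rose at 1 h of IFN-γ-LPS and was below control at 12 h and 24 h. Control BMDMs held 425, 393 and 471 CPM of Entpd1. With IFN-γ-LPS the 1 h libraries held 1302, 1402 and 1338 CPM, the 4 h libraries 485, 566 and 451 CPM, the 12 h libraries 122, 131 and 152 CPM and the 24 h libraries 39.1, 43.7 and 38.7 CPM. The 4 h libraries overlapped the control libraries, and no other time did. The log2 fold change was 1.62 (SE 0.092, FDR 3.3e-20) at 1 h, a 3.06-fold rise. At 4 h it was 0.17 (SE 0.094, FDR 0.125), and without TMM -0.37 (FDR 0.00035), so the direction at 4 h turns with the scaling. Entpd1 fell at 12 h (-1.72, SE 0.10, FDR 6.75e-20) and at 24 h (-3.41, SE 0.12, FDR 1.77e-29), when it was 10.6-fold lower than in control. The gene body holds 3 same-strand annotations, 2 processed pseudogenes of 758 and 522 bases and a sense-intronic transcript of 9890 bases. None of them has a row in the count files.

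With IL-4 and IL-13, Entpd1 also fell. Its libraries stood at 317, 292 and 280 CPM with IL-4 and at 305, 342 and 324 CPM with IL-13, all below the control libraries. The log2 fold changes were -0.55 (SE 0.088, FDR 3.76e-06) and -0.43 (SE 0.087, FDR 0.000179). In RAW264.7, Entpd1 was near the limit of the counts, at 2.78 and 2.54 CPM in control cells and 5.97 and 4.85 CPM with LPS, and the change of 1.04 (SE 0.46, FDR 0.0575) was not called. The order of Entpd1 levels was 1 h, 4 h, control, IL-13, IL-4, 12 h and 24 h in BMDMs, then RAW264.7 with LPS and RAW264.7 control. Overlap was seen between 4 h and control and between IL-13 and IL-4.

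P2rx4 encodes an ATP-gated channel found on lysosomes and the surface of macrophages, on the plus strand of chromosome 5 (122707544 to 122729738). It was expressed in every BMDM library, and with TMM no change against control exceeded 0.69 (log2). Control BMDMs held 271, 230 and 253 CPM of P2rx4. With IFN-γ-LPS, the 1 h libraries held 248, 260 and 238 CPM, the 4 h libraries 234, 238 and 201 CPM, the 12 h libraries 354, 315 and 425 CPM and the 24 h libraries 398, 399 and 422 CPM. The 1 h and 4 h libraries overlapped control, and the 12 h and 24 h libraries lay above it. P2rx4 rose at 12 h (log2 0.49, SE 0.098, FDR 3.4e-05) and 24 h (0.69, SE 0.097, FDR 4.1e-08). At 1 h the value was -0.05 (SE 0.10, FDR 0.756) and at 4 h -0.22 (SE 0.10, FDR 0.0608). Without TMM, P2rx4 was called lower at 4 h (-0.75, FDR 9.07e-09) and was not called at 12 h (0.17, FDR 0.105).

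IL-4 put P2rx4 at 288, 285 and 312 CPM and IL-13 at 303, 303 and 272 CPM. All 6 libraries lay above control, yet the log2 fold changes of 0.22 (SE 0.090, FDR 0.106) and 0.20 (SE 0.090, FDR 0.133) were not called. RAW264.7 held far less P2rx4, 9.37 and 13.4 CPM in control cells and 10.8 and 11.8 CPM with LPS, a log2 fold change of 0.03 (SE 0.28, FDR 0.945). Levels of P2rx4 were ordered as 24 h, 12 h, IL-4, IL-13, control, 1 h and 4 h, with both RAW264.7 groups last. Overlap was seen between 24 h and 12 h, IL-4 and IL-13, control and 1 h, and the RAW264.7 pair.

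P2ry6 encodes a UDP receptor, known for chemokine output and phagocytosis in myeloid cells, on the minus strand of chromosome 7 (100937630 to 100974649). It rose early with IFN-γ-LPS and rose with IL-4, IL-13 and, in RAW264.7, LPS. Control BMDMs held 167, 163 and 144 CPM of P2ry6. With IFN-γ-LPS, 1 h libraries held 251, 234 and 265 CPM, 4 h libraries 292, 277 and 222 CPM, 12 h libraries 172, 188 and 251 CPM and 24 h libraries 148, 139.7 and 154 CPM. At 1 h and 4 h all libraries lay above control, and at 24 h the groups overlapped. P2ry6 rose at 1 h (log2 0.63, SE 0.11, FDR 9.67e-06) and 4 h (0.68, SE 0.11, FDR 1.46e-06). The 4 h call was lost without TMM (0.15, FDR 0.218). At 12 h the value was 0.32 (SE 0.11, FDR 0.0153), not called although the groups did not overlap. Without 12 h replicate 1 or 24 h replicate 1, which shares the fit, it was called (0.44, FDR 0.00216, and 0.33, FDR 0.00899), as it was with Rn45s kept (0.35, FDR 0.00887), without the filter (0.36, FDR 0.00354) and with all 21 BMDM samples in 1 fit (0.36, FDR 0.00435). Without TMM the 12 h value was 0.0043 (FDR 0.976). At 24 h the value was -0.10 (SE 0.11, FDR 0.455).

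With IL-4, P2ry6 stood at 265, 257 and 239 CPM and with IL-13 at 290.5, 286 and 293 CPM, the highest group mean of the 9 (289.9 CPM). The log2 fold changes against control were 0.67 (SE 0.094, FDR 1.82e-07) and 0.86 (SE 0.093, FDR 1.27e-10). In RAW264.7, the libraries went from 93.0 and 97.5 CPM to 155 and 156 CPM with LPS, a log2 fold change of 0.75 (SE 0.10, FDR 3.25e-12). In the order of P2ry6 levels, IL-13, 4 h, IL-4, 1 h and 12 h overlapped from neighbour to neighbour. Control BMDMs and RAW264.7 with LPS followed, also overlapping, and then 24 h and RAW264.7 control.

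P2ry12 encodes an ADP receptor best known from platelets and microglia, on the minus strand of chromosome 3 (59216272 to 59262871), wholly inside Med12l on the opposite strand. Counts of P2ry12 were low. BMDM libraries held 1 to 20 counts (0.524 to 12.9 CPM), with the most at 1 h of IFN-γ-LPS, where the libraries held 7, 20 and 9 counts against 3, 4 and 1 in control. The 1 h libraries did not overlap the control libraries. P2ry12 did not pass the filter of the BMDM fits as reported and was not tested there. It was tested without the filter, and in 13 fits with a library left out that let it pass. At 1 h it was then called higher in 13 of the 14 (log2 1.78 to 2.57), with 2.20 (FDR 0.00042) without the filter, and not without control replicate 3 (1.78, FDR 0.0219). From 1 h to 4 h it was called lower in 3 of 14 (-2.09 to -1.66), with -1.83 (FDR 0.00617) without the filter. These calls rest on 36 counts at 1 h and 8 in control, and a gene that passes through its highest group had to differ. All 14 fits kept 1 h replicate 2 with its 20 counts, so nothing is read from their number. In RAW264.7, P2ry12 stood at 6.24 and 4.35 CPM in control cells (18 and 12 counts) and at 1.59 and 0 CPM with LPS (4 and 0 counts). It fell, by 2.73 on the log2 scale (SE 0.61, FDR 5.55e-05), but the call rests on few counts. Without RAW264.7 control replicate 1 the log2 fold change was -2.43 (FDR 0.034), without LPS replicate 2 it was -1.67 (FDR 0.0778) and without LPS replicate 1 it was -6.91 (FDR 7.91e-05). With DESeq2 it was not called (-2.76, FDR 0.0516).

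Ada turns adenosine into inosine and lies on the minus strand of chromosome 2 (163726584 to 163750239). It was low in BMDMs and higher in RAW264.7, a difference that was not tested. BMDM libraries held 1 to 10 counts of Ada, from 0.577 to 5.79 CPM, with the highest mean at 1 h of IFN-γ-LPS (9, 9 and 10 counts against 4, 7 and 5 in control). Ada was not tested in BMDMs as reported, for the same reason as P2ry12. Without the filter it was called in none of the 12 BMDM comparisons, with 0.86 (FDR 0.231) at 1 h. RAW264.7 control cells held 23.6 and 29.7 CPM of Ada (68 and 82 counts), and LPS-stimulated cells 18.3 and 17.3 CPM (46 and 50 counts). These groups did not overlap, but the log2 fold change of -0.54 (SE 0.20, FDR 0.0234) was not called. Without TMM it was (-0.72, FDR 0.00207).

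Set against the background, 4 of the 5 members tested were called at 1 h of IFN-γ-LPS, where 26% of all genes tested were called. The 4 h group had 3 of 5 (51.5%), the 12 h group 4 of 5 (47.3%) and the 24 h group 4 of 5 (45.2%). With the study's fold cutoff of 1.5 (log2) added, the shares of all genes were 7.12%, 22.8%, 17.3% and 14.9%. That cutoff also ended the calls of P2ry6 at 1 h and 4 h and of P2rx4 at 12 h and 24 h. Adora2a and Adora2b passed the filter on low counts only through the stimulated libraries, so nothing is read from these counts. With IL-4, 2 of 3 members tested were called (7.63% of all genes) and with IL-13 also 2 of 3 (10.1%), Entpd1 and P2ry6 in both. With the cutoff of 0.7 neither stayed called with IL-4 (3.86% of all genes), and P2ry6 alone stayed called with IL-13 (5.36%). In RAW264.7, 3 of 6 were called (27.9%), namely Adora2b, P2ry6 and P2ry12, the last not with DESeq2. With the cutoff of 2, the P2ry6 call was lost (3.22% of all genes were called). P2ry12 passed the filter only through the control libraries, and Adora2b and Entpd1 only with the LPS libraries, so nothing is read from this count.

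**Figure D2:**
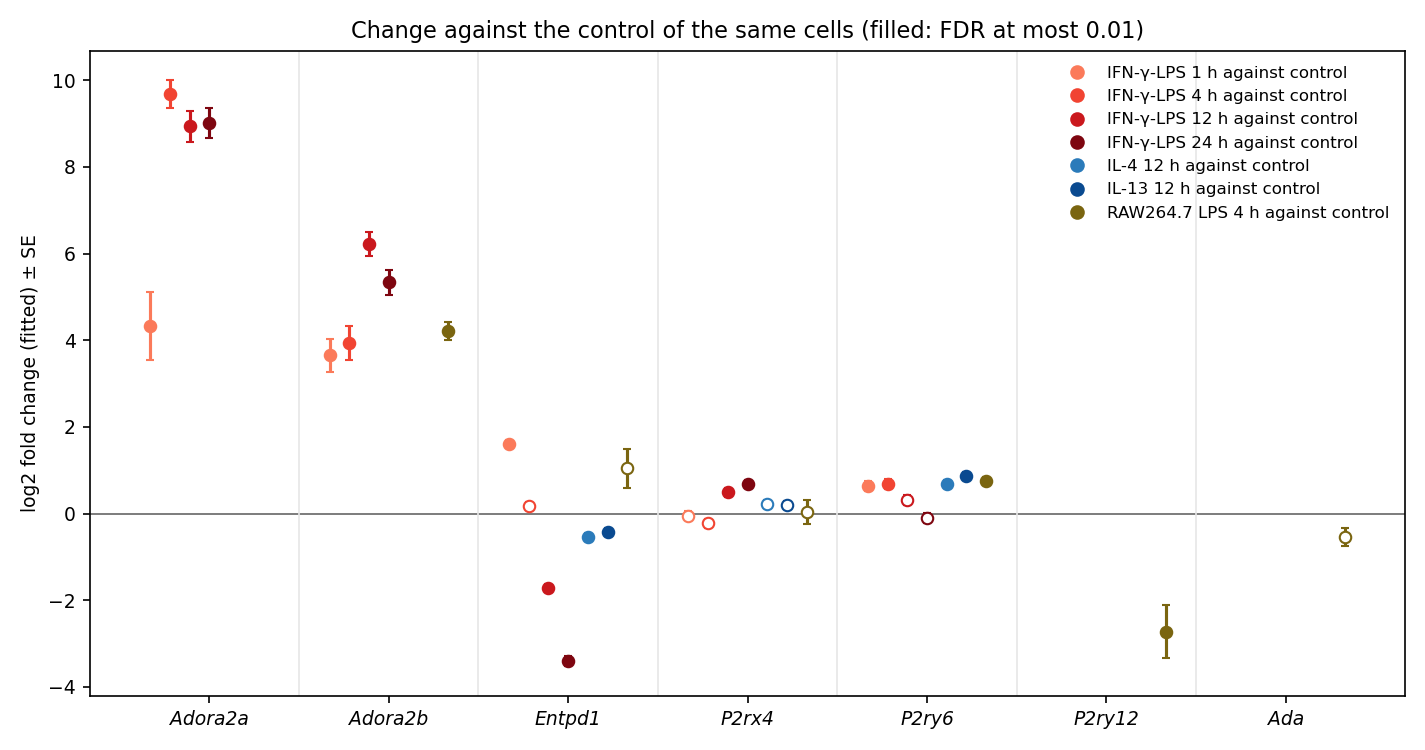
Fitted log2 fold change against control with its SE (vertical axis) for the members tested, in the 7 comparisons with a control. Filled points are called at an FDR of at most 0.01 and open points are not. Adora2a reaches 9.68 at 4 h and Adora2b 6.22 at 12 h, while Entpd1 turns from 1.62 at 1 h to -3.41 at 24 h and P2rx4 and P2ry6 stay between -0.22 and 0.86.

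Each step of the IFN-γ-LPS course was tested as well, since the members did not move together. From 1 h to 4 h, 2 of 5 members tested were called (38.9% of all genes). With the fold cutoff Adora2a alone stayed called, beside 14% of all genes. The 1 h libraries alone would not have let Adora2a pass the filter on low counts, so nothing is read from these counts. Adora2a rose by 5.35 (log2, SE 0.20, FDR 1.3e-27) and Entpd1 fell by 1.45 (SE 0.093, FDR 1.77e-18), while Adora2b had 0.28 (SE 0.23, FDR 0.329), P2ry6 0.05 (SE 0.11, FDR 0.732) and P2rx4 -0.17 (SE 0.10, FDR 0.166). Without TMM the signs of Adora2b (-0.059) and P2ry6 (-0.29) were negative and P2rx4 was called (-0.51, FDR 2.65e-05). From 4 h to 12 h, all 5 were called (35.9%). With the cutoff Adora2b and Entpd1 stayed called (9.66% of all genes). The adenosine receptors went opposite ways: Adora2a fell by 0.75 (SE 0.12, FDR 9.09e-07) and Adora2b rose by 2.29 (SE 0.17, FDR 1.56e-15). Entpd1 fell by 1.88 (SE 0.10, FDR 2.06e-20), and P2rx4 rose by 0.71 (SE 0.10, FDR 1.08e-07). P2ry6 fell by 0.36 (SE 0.11, FDR 0.0073), with groups that overlapped. The P2ry6 call was lost without 4 h replicate 1 (-0.29, FDR 0.0555), 4 h replicate 2 (-0.34, FDR 0.033), 12 h replicate 1 (-0.26, FDR 0.0804) or 12 h replicate 2 (-0.31, FDR 0.0447), with DESeq2 (-0.37, FDR 0.0156) and without TMM (-0.15, FDR 0.273).

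The last step, from 12 h to 24 h, had 3 of 5 members called (14.2% of all genes). With the cutoff Entpd1 alone stayed called (1.29% of all genes). Adora2b fell by 0.89 (SE 0.13, FDR 8.07e-07) and Entpd1 by 1.69 (SE 0.12, FDR 4.65e-15). P2ry6 fell by 0.42 (SE 0.11, FDR 0.00433), a call lost without 12 h replicate 3 (-0.26, FDR 0.086), without 24 h replicate 2 (-0.39, FDR 0.029) and without TMM (-0.33, FDR 0.022). Adora2a had 0.08 (SE 0.12, FDR 0.698) and P2rx4 0.20 (SE 0.095, FDR 0.137). Of the counts of both adenosine receptor genes together, Adora2a took 91.1% in the 4 h group (89.5% to 92.5% over the libraries), 55.3% in the 12 h group (48.8% to 59.9%) and 70.9% in the 24 h group (66.3% to 74.1%), and the ranges did not overlap.

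At 12 h, IFN-γ-LPS was also set directly against IL-4 and IL-13. The labelled hours of these groups are the same, but IFN-γ priming of unknown length may come on top. Both adenosine receptor genes stood far higher and Entpd1 lower with IFN-γ-LPS. Of the 5 members tested, 3 were called against IL-4 (42.8% of all genes) and 4 against IL-13 (42.3%). With the fold cutoff, Adora2a and Adora2b alone stayed called in both comparisons (16.3% and 16.2% of all genes). Adora2a and Adora2b passed the filter of this fit only through the IFN-γ-LPS libraries, so nothing is read from these counts. Adora2a was higher by 8.17 (log2, SE 0.36, FDR 1.08e-20) than with IL-4 and by 7.36 (SE 0.32, FDR 9.88e-21) than with IL-13. By counts, the ratio to IL-4 was 340 (93.8 to 2817). Without IL-13 replicate 2, which holds all 4 counts of its group, the difference from IL-13 was 10.80. Adora2b was higher by 4.63 (SE 0.23, FDR 3.31e-19) and 4.46 (SE 0.22, FDR 3.26e-19), and Entpd1 was lower, at -1.13 (SE 0.11, FDR 5.58e-11) and -1.25 (SE 0.11, FDR 3.48e-12). P2ry6 was lower than with IL-13 (-0.50, SE 0.11, FDR 0.000378) and had -0.31 (SE 0.12, FDR 0.0233) against IL-4. That last value was called without 12 h replicate 3 of IFN-γ-LPS (-0.49, FDR 5.97e-05) and without TMM (-0.67, FDR 2.36e-06). Without TMM the difference from IL-13 was -0.89 (FDR 9.34e-09). P2rx4 had 0.31 (SE 0.11, FDR 0.0151) and 0.33 (SE 0.11, FDR 0.0105). These were called without 12 h replicate 2 of IFN-γ-LPS (0.41, FDR 0.00397, and 0.43, FDR 0.00246), without the filter (FDR 0.00779 and 0.00609) and with all 21 BMDM samples in 1 fit (FDR 0.00547 and 0.00445), and without TMM they turned to -0.045 and -0.062.

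Between IL-13 and IL-4, edgeR called none of the 3 members tested (0.108% of all genes, and 0.0649% with the cutoff), 1 of them had an unadjusted p under 0.05, and DESeq2 called none. The log2 differences, IL-13 minus IL-4, were 0.12 (SE 0.089) for Entpd1, -0.02 (SE 0.089) for P2rx4 and 0.18 (SE 0.089) for P2ry6. For P2ry6 the unadjusted 95% interval ran from 0.0090 to 0.36 and the libraries did not overlap, but the FDR was 0.694.

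Compared per kilobase of annotated exon (GENCODE M21 on mm10), the leading genes changed with activation. In control BMDMs, Entpd1 (mean 98.9 CPM per kb), P2rx4 (93.0) and P2ry6 (81.2) stood close together, and the other 4 genes were at 0.0686 to 1.70 CPM per kb. Entpd1 led at 1 h, with 309.9 CPM per kb against 128 for P2ry6. At 4 h, P2ry6 stood at 136, Entpd1 at 115, P2rx4 at 83.0 and Adora2a at 82.5 CPM per kb. P2rx4 led at 12 h (135) and 24 h (150.3), when Adora2b (55.3 and 28.9) and Adora2a (48.6 and 50.04) stood above Entpd1 (31.1 and 9.32). In RAW264.7 control cells the order was P2ry6 (48.9), Ada (15.8), P2rx4 (4.21) and Adora2b (2.51), and with LPS it was P2ry6 (79.97), Adora2b (45.6), Ada (10.6) and P2rx4 (4.17). No test was made between genes, or between RAW264.7 and BMDMs.

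**Figure D3:**
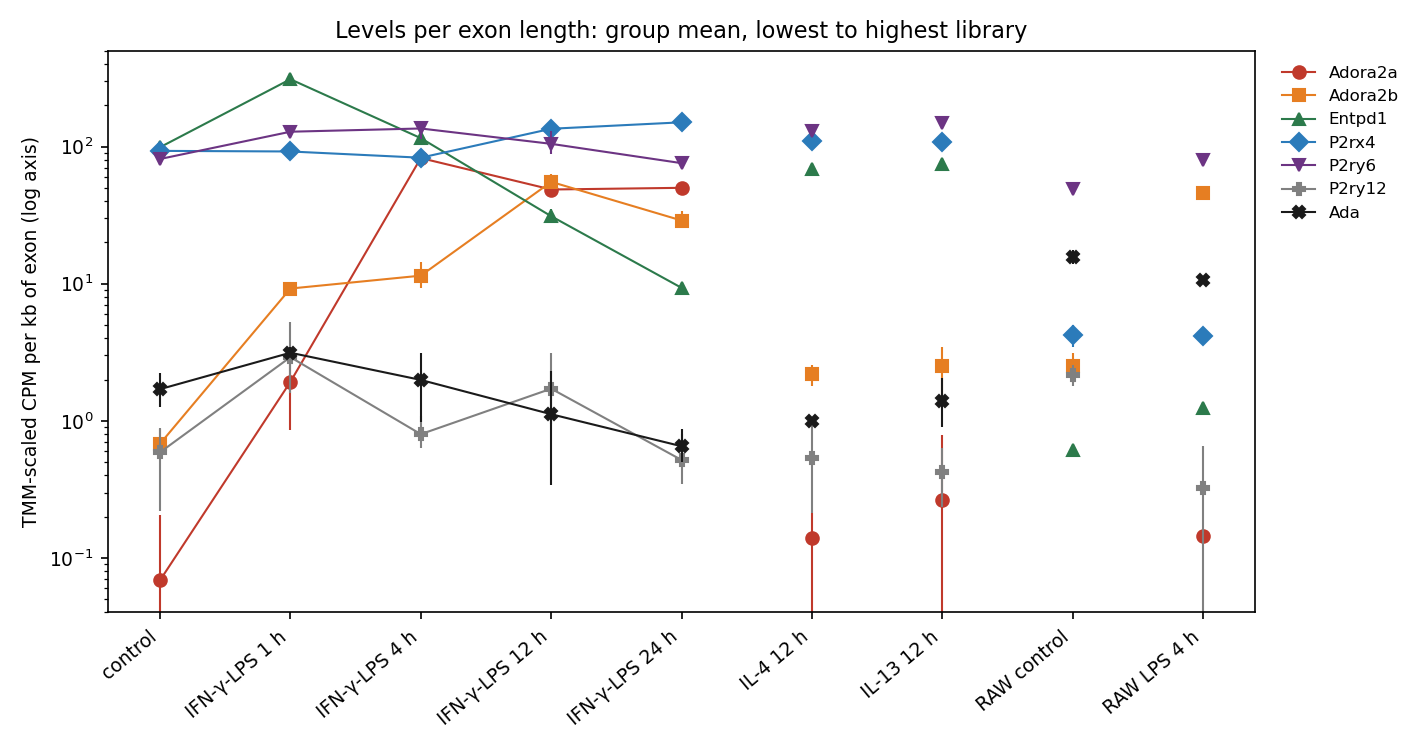
Level of each gene per kilobase of exon (TMM-scaled CPM per kb, log axis) in the 9 groups. Points are group means and vertical lines run from the lowest to the highest library; values of 0 cannot be drawn on this axis. Entpd1 crosses below the adenosine receptor genes between 4 h and 12 h of IFN-γ-LPS, and Ada stands above Entpd1 and P2rx4 in RAW264.7.

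Beyond the members, 45 genes of the same pathway were followed: other receptors, surface and intracellular enzymes, purine metabolism, nucleoside transporters, ATP release channels and NAD ectoenzymes. At 1 h of IFN-γ-LPS, 6 of 24 tested rose and 4 fell, where 26% of all genes tested were called. In the 4 h group 9 rose and 10 fell (51.5% of all genes called), in the 12 h group 8 and 6 (47.3%), and in the 24 h group 9 and 6 (45.2%). Without TMM these were 6 and 5, 8 and 11, 8 and 8, and 9 and 7. Without the stimulated libraries, Cd38, Bst1, Pnp2, P2ry13, P2ry14 and Acpp would not have passed the filter of this fit, so nothing is read from these counts. The median log2 fold change of the list was 0.021, 0.22, -0.026 and 0.27, beside -0.027, -0.075, -0.030 and 0.019 over all genes. With IL-4, 3 of 20 rose and 1 fell (7.63% of all genes called), and with IL-13, 4 rose and 1 fell (10.1%, with medians -0.066 and -0.089, all genes -0.0061 and -0.012). Acpp, which rose in both, passed the filter of that fit only through the IL-4 and IL-13 libraries, so nothing is read from these counts either. In RAW264.7, 1 of 17 rose and 2 fell (27.9% of all genes called, median -0.15, all genes -0.00028), and without TMM none rose and 5 fell.

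The other adenosine receptor genes were not expressed at a testable level. Adora1 had no count in any library and Adora3 reached at most 2.31 CPM. Of 6 further P2X genes, P2rx7 alone passed the filter. P2rx7, the ATP-gated channel that leads to inflammasome activation, stood at 78.9, 78.1 and 85.5 CPM in control and between 12.3 and 19.5 CPM at 4 h. It fell at all 4 times (log2 -0.54, -2.47, -1.55 and -1.49), and the 1 h call was lost without control replicate 3 (FDR 0.0138) or 1 h replicate 1 (FDR 0.0108) and with DESeq2 (FDR 0.0116). It also fell in RAW264.7, from 33.7 and 43.5 to 11.9 and 16.3 CPM (-1.39, SE 0.19, FDR 1.35e-11). Of the counts of P2rx4 and P2rx7 together, P2rx4 took 75.6% in control BMDMs and 93.7% at 4 h.

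Of 6 further P2Y genes, 4 were tested in the IFN-γ-LPS course, and they did not move one way. P2ry13 and P2ry14, receptors for ADP and for UDP-sugars, rose at all 4 times. P2ry14 went from 4.83, 3.25 and 8.02 CPM in control to 98.7, 98.8 and 118 CPM at 12 h (log2 4.23, SE 0.20, FDR 2.29e-23), and P2ry13 from a mean of 2.33 to 38.1 CPM (3.95). P2ry2, an ATP and UTP receptor, rose at 1 h (0.99) and 4 h (0.93) and was not called later. Without TMM its 4 h call was lost (0.40, FDR 0.0742). P2ry2 also rose in RAW264.7 (1.02, SE 0.34, FDR 0.0088), a call lost with DESeq2 (FDR 0.205), without TMM (0.0342), without the filter (0.0109), with unstranded counts (0.012), with a replicate block (0.0117), and without control replicate 1 (0.66, FDR 0.198), LPS replicate 1 (FDR 0.0407) or LPS replicate 2 (FDR 0.0699). P2ry1, an ADP receptor, fell at all 4 times and rose with both M2 cytokines. Its libraries held 16.1, 28.2 and 17.6 CPM in control, 0.886, 0.777 and 0 CPM at 4 h, 58.1, 58.4 and 42.3 CPM with IL-4 and 59.2, 62.4 and 60.7 CPM with IL-13. By counts P2ry1 at 4 h was 0.0267 (0.00319 to 0.0986) times the control, and with IL-4 and IL-13 the log2 fold changes were 1.35 (SE 0.18, FDR 4.44e-08) and 1.54 (SE 0.17, FDR 3.65e-10). At 12 h, P2ry1 was lower with IFN-γ-LPS than with IL-4 (-4.98) or IL-13 (-5.17), and P2ry13 was higher than with IL-4 (5.27).

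Of 8 surface enzyme genes, 2 passed the filter. Enpp1, which cuts ATP to AMP and pyrophosphate, fell at all 4 times with IFN-γ-LPS, from a mean of 29.7 CPM to 3.20 CPM at 12 h (log2 -3.23), and rose with IL-4 (0.65, SE 0.16, FDR 0.00398) and IL-13 (0.82, SE 0.16, FDR 7.89e-05). Acpp, an acid phosphatase with AMP-cutting activity, rose at 12 h (3.57) and 24 h (2.56) and, from 2.68, 2.71 and 5.34 CPM, to 8.90, 10.0 and 13.7 CPM with IL-4 (1.56, SE 0.37, FDR 0.00177) and 10.4, 13.3 and 9.11 CPM with IL-13 (1.57, SE 0.36, FDR 0.00103). With IL-4, both calls were lost with DESeq2 (FDR 0.022 for Enpp1, 0.012 for Acpp), without control replicate 1 (0.0185 and 0.0156), control replicate 2 (0.0262 and 0.016) or IL-4 replicate 3 (0.0242 and 0.0246), and for Enpp1 without IL-4 replicate 2 (0.0314). With IL-13, the Acpp call was lost without control replicate 1 (FDR 0.0107) or IL-13 replicate 2 (FDR 0.0148). Nt5e, the enzyme that makes adenosine from AMP, was too low to be tested, with means of 0.914 to 7.07 CPM over the 9 groups. Among the intracellular relatives of Entpd1, Entpd5 fell at 4 h, 12 h and 24 h (-0.98, -1.70 and -1.95) and in RAW264.7 (-0.93, SE 0.30, FDR 0.00679). The 4 h call was lost with DESeq2 (FDR 0.0137) and without control replicate 2 (FDR 0.0326), 4 h replicate 1 (0.0305) or 4 h replicate 2 (0.0212), and that in RAW264.7 with DESeq2 (0.197), with unstranded counts (-0.81, FDR 0.0234) and without control replicate 2 (-0.47, FDR 0.376), LPS replicate 1 (0.0306) or LPS replicate 2 (0.0963).

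Both NAD ectoenzymes rose. Bst1 went from 0.536, 1.63 and 1.60 CPM in control to 41.4, 34.7 and 30.3 CPM at 1 h (log2 4.71, SE 0.34, FDR 2.49e-16) and stayed called at 4 h, 12 h and 24 h (4.43, 4.83 and 5.38). Cd38 went from 0.536, 0 and 1.07 CPM to 27.5, 31.1 and 24.6 CPM at 4 h and 307, 330 and 507 CPM at 12 h. Cd38 rests on 3 control counts, and by counts the 4 h group held 51.7 (17.2 to 255) times the control, the 12 h group 711 (243 to 3451) times and the 24 h group 579.7 (198 to 2813) times. In RAW264.7, Bst1 stood at 24.6 and 25.7 CPM in control and was not called (-0.06), and Cd38 had at most 0.347 CPM.

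Of 8 genes of purine metabolism, Pnp, which splits inosine, rose at all 4 times, from 90.1, 94.9 and 86.6 CPM to 1235, 1311 and 1232 CPM at 4 h (log2 3.74). Its paralog Pnp2 rose from 4 h on, by counts 39.1 (10.3 to 332), 127 (34.9 to 1059) and 74.6 (20.3 to 621) times the control, which held 2 counts. Pnp and Pnp2 are near-identical copies, so how reads were split between them is uncertain. Ampd3, which deaminates AMP, rose at 1 h (1.92), 4 h (2.78) and 24 h (0.99) and fell with IL-4 (-0.89, SE 0.20, FDR 0.000966) and IL-13 (-0.996, SE 0.20, FDR 0.000142). The IL-4 call was lost with DESeq2 (FDR 0.0112) and without control replicate 2 (0.031), IL-4 replicate 2 (0.0104) or IL-4 replicate 3 (0.0201). Adk, adenosine kinase, fell at 4 h (-0.78) and 12 h (-1.46) and rose from 12 h to 24 h (1.64). Its 4 h call was lost with DESeq2 (FDR 0.0238) and without control replicate 2 (0.0578), 4 h replicate 1 (0.0513) or 4 h replicate 2 (0.0255). Among the nucleoside transporters, the concentrative Slc28a2 rose from 11.8, 11.9 and 7.48 CPM to 93.9, 54.4 and 71.4 CPM at 4 h (2.74) and 158, 132 and 261 CPM at 12 h (4.09), and the equilibrative Slc29a1 fell at all 4 times (-0.69, -0.75, -0.78 and -0.69). Of the ATP release channels, Panx1 fell at 4 h (-0.80), a call lost with DESeq2 (FDR 0.0239), without the filter (0.0103) and without control replicate 1 (0.056), 4 h replicate 1 (0.0288) or 4 h replicate 3 (0.0335), and Gja1 was not called against control.

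**Figure D4:**
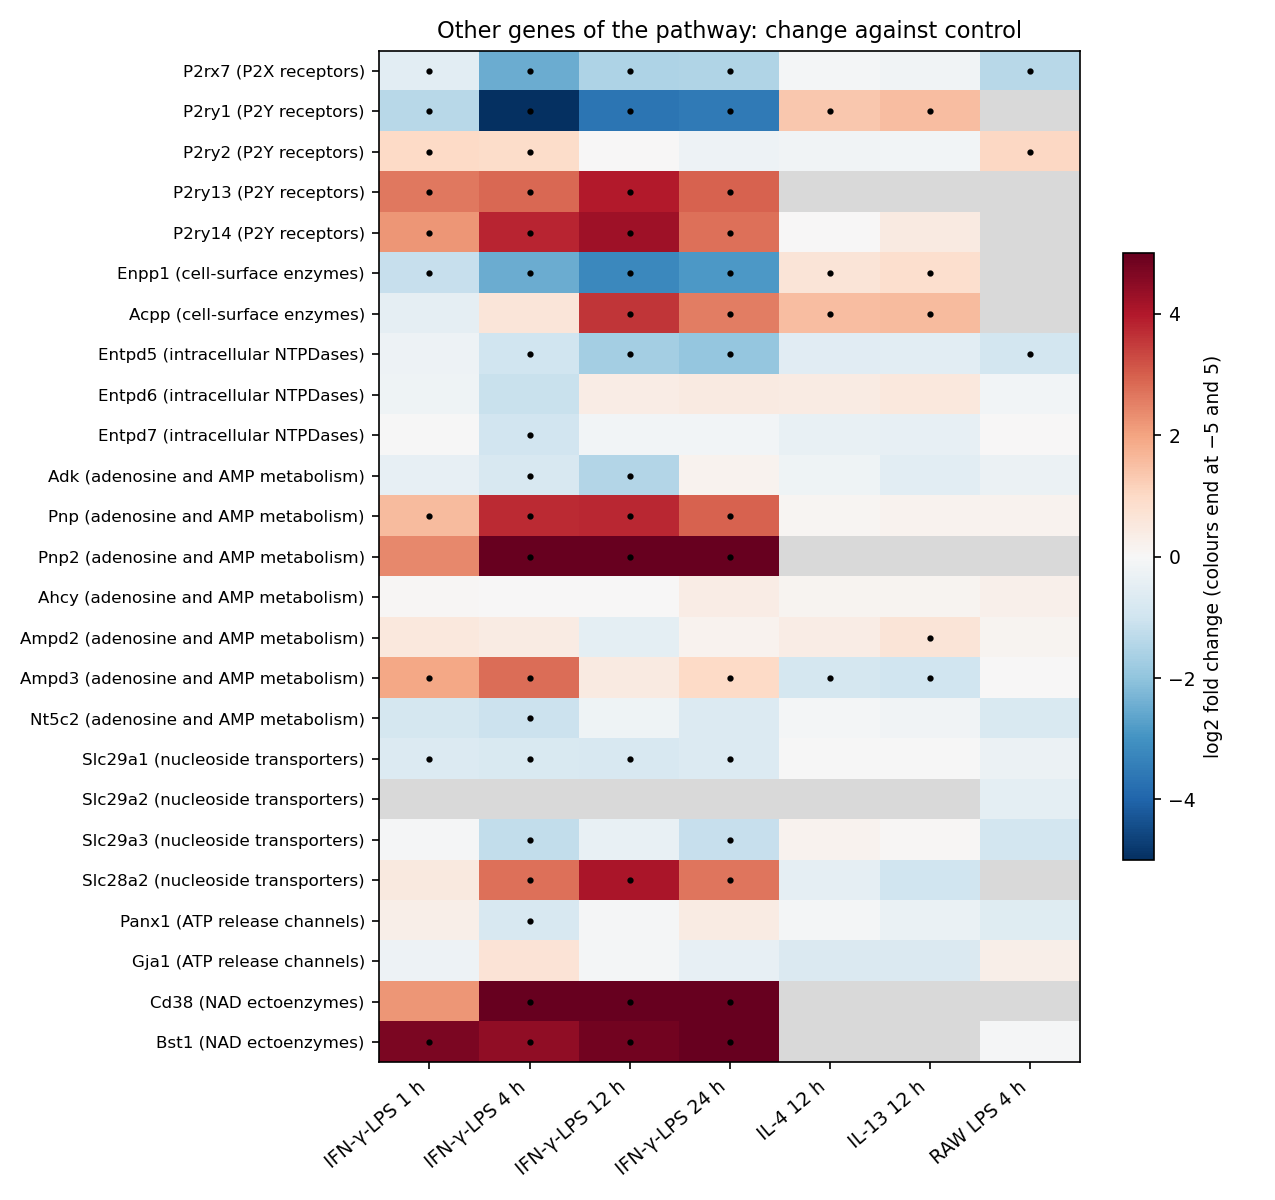
Fitted log2 fold change against control (colour, ending at -5 and 5) of the 25 pathway genes tested in at least 1 of the 7 comparisons with a control. Dots mark calls at an FDR of at most 0.01 and grey cells were not tested. P2rx7, P2ry1, Enpp1 and Slc29a1 are lower and P2ry13, P2ry14, Bst1 and Pnp higher at all 4 times of IFN-γ-LPS, while P2ry1 and Enpp1 are higher with IL-4 and IL-13.

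The genes whose levels ran most like a member's were found by Pearson's r over the 21 BMDM samples, among 9841 genes. Here log2 CPM (prior count 2) were scaled to library size alone, without TMM, so the shifts between groups that TMM removes remain in r. The points share libraries and treatment groups, so r is a description only. Adora2a ran closest to Rtp4 (0.986), Ifit3 (0.984) and Ifi35 (0.983), 3 interferon-induced genes. Adora2b was closest to M6pr (0.975) and the proteasome genes Psma5 (0.968) and Psma4 (0.966), and Entpd1 to Sowahc (0.962), Pcna (0.962) and Galnt7 (0.961). P2rx4 ran with Tbc1d2b (0.969), Pstpip1 (0.961) and Aldh3b1 (0.958), and P2ry6, less closely, with Tmem50a (0.917), Flt1 (0.916) and Cst3 (0.904).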

How the data were processed

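RNA-seq counts of 25 samples in 9 groups were used, and groups were taken from the sample labels. Per the submitters' notes and methods, base calls were made with CASAVA 1.8.2, reads were trimmed with Trimmomatic 0.33 and aligned to mm10 with STAR 2.5.1. The authors deposited raw whole-number counts per gene symbol and strand, without normalization. The annotation release is not given in the sources used here. RNA was depleted of ribosomal RNA and libraries were directional, whereas the labels' molecule field names polyA RNA.

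Sense counts without Rn45s were fitted in R 4.3.3 with edgeR 4.0.16 (TMM, filterByExpr, robust quasi-likelihood fit) in 4 fits: the 15 samples of control and IFN-γ-LPS, the 9 of control, IL-4 and IL-13, the 9 of IFN-γ-LPS 12 h, IL-4 and IL-13, and the 4 of RAW264.7. Adjustment was over all genes of a comparison (9568, 9252, 9380 and 9406). Printed CPM use TMM factors of all 25 samples. The members and lists were chosen with earlier results of these data known. Named pathway genes follow a rule, the up to 4 called genes of largest change per comparison with at least 5 CPM in the higher group, and others are named after their values were seen. Alternatives were DESeq2 1.42.0, no TMM, Rn45s kept, no filter beyond 1 count, unstranded counts, a replicate block, the study's fold cutoffs, all 21 BMDM samples in 1 fit, and leaving out each sample. The code was tested on simulated data.

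The methods describe independent RNA samples, and the p-values measure only the spread between these samples. In 23 pairs of replicates, chi-square per degree of freedom was 1.33 to 4.93, above sampling noise, so none was taken as the same library counted again. The lowest values were those of replicates 1 and 2 at 1 h (1.33) and at 12 h (1.334) of IFN-γ-LPS. Separate libraries from the same culture can also lie above sampling noise, so they cannot be told apart this way. BMDMs given only LPS were not analysed here. Figures were drawn with Python 3.11.15 and matplotlib 3.10.9.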

Additional observations from a re-analysis of the deposited data

Results flagged for a closer look

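Antisense counts, which enter no comparison, were above those of control BMDMs for 2 members. Adora2a had 5 antisense counts at 1 h of IFN-γ-LPS, beside 27 sense counts, and 7 at 4 h, beside 777 sense counts, with 0 in control. These were 15.6% and 0.893% of the Adora2a counts, and the control held 1 sense count of it. Entpd1 had 32 antisense counts at 1 h (0.445% of its counts) and 10 at 4 h (0.544%), against 4 in control (0.166%). Over all genes but Rn45s, the opposite strand took 1.17% to 1.41% of counts in the control, 1 h and 4 h libraries. Only the Adora2a share at 1 h lay above that range.

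Tests between times of IFN-γ-LPS found that the response of the members differed by time. From 1 h to 4 h, Adora2a had a log2 difference of 5.35 and Entpd1 of -1.45. From 4 h to 12 h the differences were -0.75 for Adora2a, 2.29 for Adora2b, -1.88 for Entpd1, 0.71 for P2rx4 and -0.36 for P2ry6. From 12 h to 24 h they were -0.89 for Adora2b, -1.69 for Entpd1 and -0.42 for P2ry6. Both P2ry6 differences lay near the threshold. Leaving out 4 h replicate 1 or 2 or 12 h replicate 1 or 2 ended the call from 4 h to 12 h (-0.34 to -0.26, FDR up to 0.0804), and leaving out 12 h replicate 3 or 24 h replicate 2 ended that from 12 h to 24 h (-0.26 and -0.39, FDR up to 0.086).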

How the results depend on the processing

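Of 474 values of single members under other settings, 432 kept their direction and side of the threshold, 23 lost and 11 gained the call, and 8 turned sign. Leaving out single samples gave 720 values, of which 699 kept both, 8 lost and 5 gained the call and 8 turned sign. Adding the study's fold cutoff, a stricter rule by construction, left 1 of 2 called members from 1 h to 4 h and 2 of 5 from 4 h to 12 h. It left 1 of 3 from 12 h to 24 h, 0 of 2 with IL-4 and 1 of 2 with IL-13. For IFN-γ-LPS against IL-13 at 12 h it left 2 of 4. In the other comparisons it ended the calls of P2ry6 at 1 h, at 4 h and in RAW264.7. It also ended those of P2rx4 at 12 h and 24 h and of Entpd1 against IL-4 at 12 h. Without TMM the sign turned for Entpd1 at 4 h (-0.37), for Adora2b (-0.059) and P2ry6 (-0.29) from 1 h to 4 h, and for P2rx4 between IL-13 and IL-4 (0.017), between IFN-γ-LPS and IL-4 (-0.045) or IL-13 (-0.062) at 12 h and in RAW264.7 (-0.15). With unstranded counts P2rx4 in RAW264.7 turned (-0.044). The cause of these was not tested beyond the median shift given with the levels. Leaving out 1 sample turned values near 0, with ranges of -0.10 to 0.012 for P2rx4 at 1 h, -0.024 to 0.16 for P2ry6 from 1 h to 4 h, -0.024 to 0.17 for Adora2a from 12 h to 24 h, -0.050 to 0.031 for P2rx4 between IL-13 and IL-4 and -0.20 to 0.31 for P2rx4 in RAW264.7. With DESeq2, P2ry12 in RAW264.7 was not called (FDR 0.0516), and the calls over all genes there went from 2625 to 1226. Between IL-13 and IL-4, 10 calls over all genes became 4 with DESeq2, 18 without the filter and 3 to 20 with a sample left out. Without TMM the share of higher calls over all genes at 4 h went from 50.4% to 24.3%. Replicate numbers did not pair the samples (mean correlation of same-numbered deviations 0.0213, 0.00805, -0.0107 and -0.00369 in the 4 fits), and blocking on that number changed no member's call, while P2ry2 in RAW264.7 lost its call (FDR 0.0117). Of the called pathway genes' values, 83 of 1770 lost the call with a sample left out and 32 of 956 under other settings, and 0 turned sign. P2ry12, not tested in BMDMs as reported, was called at 1 h in 13 of the 14 fits that let it pass. Each of these fits kept 1 h replicate 2, its highest library, so nothing is read from their number. Depth limits P2ry12 and Ada in BMDMs and Adora2a in control, IL-4, IL-13 and RAW264.7 libraries.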
